A study of Rattus norvegicus with 12 samples.

Results

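Lens gene expression was compared between 10-week-old and 8-week-old ICR/Ihr rats, a strain with hereditary cataract, at 2 ages at which the lens already shows cortical opacity. The comparison rests on 6 of the 12 arrays of the series, 3 from 10-week-old and 3 from 8-week-old ICR lenses, chosen by strain and age from the sample labels. The other 6 arrays were 3 from 4-week-old ICR lenses without cataract and 1 each from 4-, 8- and 10-week-old Sprague Dawley (SD) lenses without cataract. All lenses came from males, and per the labels each was taken out of culture medium and ground whole before RNA extraction. Nothing in the labels tells whether the 3 lenses sampled at an age belonged to different rats. The p-values therefore reflect the spread among the arrays, part or all of which may be technical. The SD arrays give no spread of their own, and within ICR rats the stage of the opacity and age cannot be told apart.

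The lens grows throughout life by adding fibre cells, which arise from a single layer of epithelium at its equator. A differentiating fibre cell fills with crystallins, the structural proteins that give the lens its refractive power, and then degrades its nucleus and other organelles, so that the light path stays clear. Mature fibre cells make little or no new RNA, and most RNA of a whole lens comes from the epithelium and the young outer fibre cells. In such bulk samples, fewer cells of a type and less RNA per cell cannot be told apart.

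All values are log2 signals from GeneChip Rat Gene 2.0 ST arrays, on which several probes for the same stretch of transcript give 1 probe set value. A difference of 1 on this scale is a 2-fold difference. Of 18166 genes with a probe set of 1 gene symbol, 4546 reached a signal of 5 in at least 1 of the 9 ICR arrays and were tested. The fit was made with limma over the 9 ICR arrays, with the number that the sample title gives after the age (1, 2 or 3) as a block. Between 3115 and 3934 genes per ICR array reached a signal of 5, and the arrays numbered 1 stood apart on the component that held 67.6% of the variance. The fibre cell genes *Mip*, *Lim2*, *Bfsp1* and *Crygs* had signals of 11.18 or more on each 10-week array, and the epithelial genes *Foxe3*, *Pax6*, *Cdh1* and *Gja1* lay between 6.06 and 7.34 there. None of the 19 retinal, 19 leukocyte and 11 blood and endothelial genes measured reached a signal of 5 on any ICR array.

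Between 8 and 10 weeks, the signals of a small set of genes fell in ICR lenses, and no gene rose past the threshold of the test. In 10-week lenses 10 genes were lower than in 8-week lenses at an adjusted p under 0.05, which is 0.22% of the genes tested, and 0 were higher. The 10 genes were *Dnase2b*, *Rnf180*, *Tmem154*, *Cryge*, *Tmem100*, *Crygf*, *Capn3*, *Limd1*, *Sh3bgr* and *Bbip1*, and they were 1.71-fold to 2.39-fold lower in 10-week lenses. Of these, *Capn3* and *Tmem100* reached a signal of 5 only on arrays of younger lenses. At an unadjusted p under 0.05, 310 genes (6.82%) were lower and 111 (2.44%) higher, while the median change of all genes was −0.03 and 2588 of the 4546 (56.9%) had a negative change. All 10 calls depend on the block. Without it limma called 0 genes, with 87 at an unadjusted p under 0.05 and a smallest adjusted p of 0.48. The median standard error of a change was 0.13 with the block and 0.20 without it.

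A pair of the called genes, *Cryge* and *Crygf*, encode γ-crystallins, small monomeric crystallins made mainly by the fibre cells of the young lens. Both lie on rat chromosome 9, and they are near-identical copies whose signals an array may not fully separate, so the level of each is uncertain. The windows from 250 bases before to 50 bases after their RefSeq start sites are shown because the pair fell together. They read 5′ to 3′ on the strand of the gene (build GRCr8, chr9:73926209-73926508, minus strand, for *Cryge* and chr9:74897734-74898033, plus strand, for *Crygf*), and capitals mark each match to TATATA or TATAAA.
Cryge: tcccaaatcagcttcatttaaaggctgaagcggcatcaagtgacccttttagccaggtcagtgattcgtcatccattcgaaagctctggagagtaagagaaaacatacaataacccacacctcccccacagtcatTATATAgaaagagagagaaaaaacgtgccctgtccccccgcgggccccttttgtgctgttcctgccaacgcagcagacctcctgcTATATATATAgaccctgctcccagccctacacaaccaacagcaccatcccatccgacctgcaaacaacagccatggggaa
Crygf: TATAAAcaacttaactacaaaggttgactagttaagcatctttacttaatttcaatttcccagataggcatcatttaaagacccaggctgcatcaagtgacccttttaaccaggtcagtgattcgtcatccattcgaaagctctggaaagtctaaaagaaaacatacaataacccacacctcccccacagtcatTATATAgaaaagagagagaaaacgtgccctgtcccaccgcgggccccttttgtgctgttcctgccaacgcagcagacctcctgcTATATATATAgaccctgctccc
A local alignment of the windows covered 244 columns with 93.0% identical bases, and the longest shared run was 70 bases. That run starts at base 173 of the *Cryge* window and base 231 of the *Crygf* window, so the start sites annotated for the 2 genes lie at different distances from the same stretch. On either strand TATATA was found in 6.12% of the 27457 RefSeq promoter windows of this length. Among the 8 called genes with a window it was found in *Cryge* and *Crygf* only, and it was also found in the windows of *Crygb*, *Crygc*, *Crygd* and *Crygn*. The core of the Maf recognition element, TGCTGA, was found in the windows of *Rnf180*, *Tmem154* and *Capn3*, against 18.6% of all windows. The heat shock element GAANNTTC was in none of the 8, against 8.34% of all windows.

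*Cryge* had signals of 9.63, 10.01 and 9.81 in 10-week lenses, against 11.19, 10.82 and 10.87 in 8-week lenses. The groups did not overlap, and *Cryge* fell by 1.14 on the log2 scale (standard error 0.15, adjusted p = 0.0210 by limma). *Crygf* had 8.97, 8.87 and 8.75 in 10-week lenses and 10.68, 9.79 and 9.85 in 8-week lenses. It fell by 1.24 (standard error 0.17, adjusted p = 0.0256), again without overlap, and the array numbered 1 was the highest at both ages. In 4-week ICR lenses *Cryge* had 11.46, 11.64 and 11.28 and *Crygf* 11.74, 10.71 and 10.77.

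**Figure D1:**
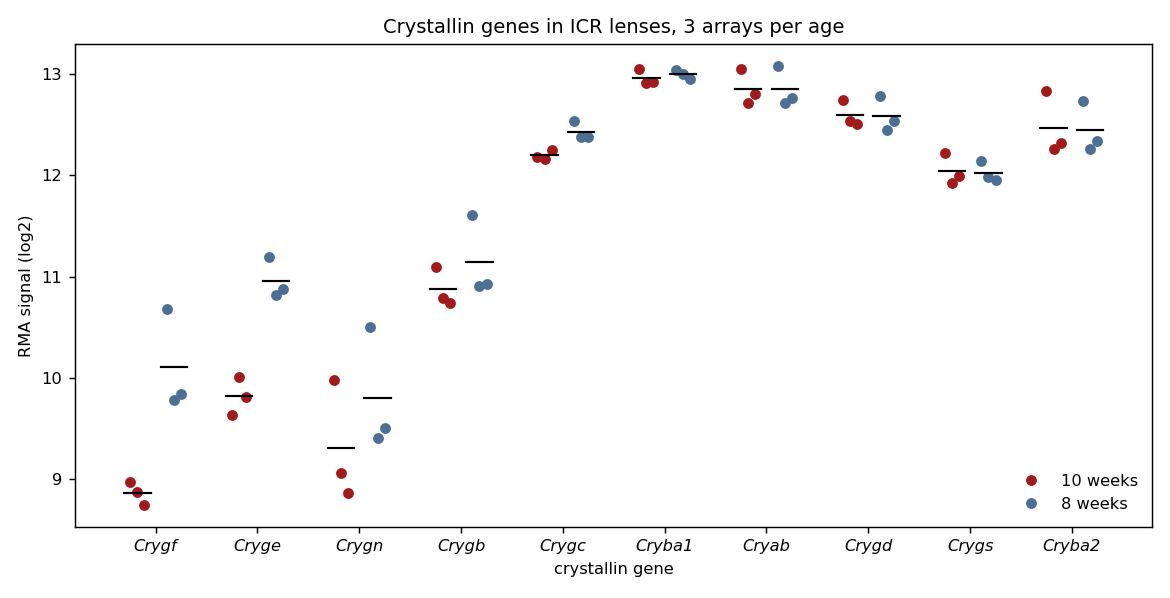
Log2 RMA signals of the 10 crystallin genes measured, with 10-week ICR lenses in red to the left of 8-week ICR lenses in blue. Points are single arrays (3 per age, in the order 1, 2, 3) and bars are means. *Crygf* and *Cryge* separate by 1.24 and 1.14, while the 5 genes on the right differ by 0.04 or less.

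None of the other crystallins passed the test. Of the 10 measured, 2 were called lower and 0 higher, 4 were lower at an unadjusted p under 0.05, and the median change was −0.14 against −0.03 over all genes. *Crygn*, a crystallin gene of mixed β and γ type, had 9.98, 9.06 and 8.87 in 10-week lenses and 10.50, 9.41 and 9.50 in 8-week lenses, a change of −0.50 (adjusted p = 0.445 by limma). *Crygb* changed by −0.27 (adjusted p = 0.535) and *Crygc* by −0.23 (adjusted p = 0.535), each lower in all 3 same-numbered pairs of arrays. The remaining members, *Cryab*, *Cryba1*, *Cryba2*, *Crygd* and *Crygs*, had group means of 12.02 or more and changes between −0.04 and 0.03. For *Crygd* the 95% interval of the change was −0.22 to 0.24. The other 6 crystallin genes of the list, *Cryaa* among them, had no probe set with 1 symbol and were not analysed here.

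*Dnase2b* encodes the lysosomal nuclease that degrades nuclear DNA in differentiating fibre cells, and mice without it keep DNA in their fibres and develop cataract. It had the smallest p of all genes. Its signals were 6.56, 5.95 and 5.65 in 10-week lenses, against 7.83, 6.82 and 6.59 in 8-week lenses, and 8.13, 7.36 and 7.18 in 4-week lenses. It fell by 1.03 between 8 and 10 weeks (2.04-fold, standard error 0.12, adjusted p = 0.0167 by limma), and each of the 10-week arrays lay below each of the 8-week arrays. Within the pairs of arrays numbered 1, 2 and 3 the changes were −1.27, −0.87 and −0.94. In SD lenses the single arrays of 4, 8 and 10 weeks read 6.82, 6.86 and 6.78.

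*Capn3* encodes a calcium-activated protease of which a splice form is abundant in rodent lens. Its signals were 4.46, 4.23 and 3.98 in 10-week lenses and 5.68, 5.27 and 5.04 in 8-week lenses, so that at 10 weeks every array was below the limit of 5. *Capn3* thus entered the test only through younger lenses, in which it was higher, and its direction is no independent evidence. It fell by 1.11 (2.15-fold, standard error 0.16, adjusted p = 0.0314 by limma). At 4 weeks the ICR arrays read 6.96, 7.33 and 6.38, and the SD arrays of 4, 8 and 10 weeks read 6.09, 5.0 and 4.16. The ubiquitous calpain *Capn2* and the small subunit *Capns1* had changes of 0.07 and 0.10, and the calpain inhibitor *Cast* had 0.02. Of the 6 calpain system genes tested, 1 was called, and the median change was 0.05.

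Most genes of fibre differentiation did not pass the test. Of 22 tested, *Capn3* and *Dnase2b* were called lower, 1 gene was higher and 3 lower at an unadjusted p under 0.05, and the median was −0.03, equal to that of all genes. The water channel gene *Mip* (−0.11), the beaded filament gene *Bfsp1* (−0.06), the fibre membrane gene *Lim2* (0.01), the connexin gene *Gja3* (0.00) and the transcription factor genes *Prox1* (0.03), *Maf* (−0.18) and *Hsf4* (−0.11) did not pass the test. The member with the largest positive change was *Tmod1*, whose product caps actin filaments in the fibre cell membrane skeleton. It had 6.75, 6.64 and 6.51 in 10-week lenses and 6.54, 6.15 and 6.01 in 8-week lenses, a change of 0.40 with an adjusted p of 0.363 by limma. Of the 18 genes of organelle and nucleic acid clearance, *Dnase2b* alone was called and the median was −0.07. The autophagy genes *Atg9a* and *Atg5* changed by −0.27 and −0.33, the exonuclease gene *Trex1* by −0.44, and the autophagy receptor gene *Sqstm1* by 0.15.

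*Rnf180*, which encodes a membrane-bound ubiquitin ligase, showed the largest fold among the called genes. It had 6.96, 6.24 and 6.26 in 10-week lenses, against 8.53, 7.37 and 7.33 in 8-week lenses, and fell by 1.26 (2.39-fold, standard error 0.15, adjusted p = 0.0167 by limma). The groups did not overlap, and its 4-week values were higher again at 9.13, 8.57 and 8.06. Of 28 genes of ubiquitin conjugation tested, *Rnf180* was the single call, with 5 lower and 0 higher at an unadjusted p under 0.05. Those nearest to the threshold were *Ube2o*, a combined E2 and E3 enzyme needed for protein clearance in maturing red cells, at −0.63 (adjusted p = 0.0798), and the F-box gene *Fbxo7* at −0.59 (adjusted p = 0.144). *Ube2o* had 6.53, 6.37 and 6.03 in 10-week lenses and 7.08, 7.02 and 6.73 in 8-week lenses, without overlap. Of the 30 proteasome genes 25 had a negative change, against 56.9% of all genes, with a median of −0.11, and 0 were called, with 4 lower at an unadjusted p under 0.05. The 22 deubiquitinase genes had a median of −0.06 and 0 calls by limma, with 2 lower at an unadjusted p under 0.05.

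The other called genes belong to no single group. *Tmem154*, a gene for a single-pass membrane protein, had 5.56, 4.98 and 5.27 in 10-week lenses and 6.81, 6.49 and 6.13 in 8-week lenses, and fell by 1.21 (standard error 0.15, adjusted p = 0.0179 by limma). *Tmem100*, known from mouse as a target of BMP signalling in blood vessels, had 4.33, 3.64 and 3.89 in 10-week lenses and 5.72, 5.14 and 4.62 in 8-week lenses. It fell by 1.21 (standard error 0.16, adjusted p = 0.0254), to below 5 on all of the 10-week arrays. Like *Capn3*, it entered the test only through younger lenses, in which it was higher, so its direction is no independent evidence. *Limd1*, a gene for a LIM domain adaptor at cell junctions, had 5.33, 4.90 and 4.29 in 10-week lenses and 6.11, 5.99 and 5.33 in 8-week lenses, where the highest 10-week array and the lowest 8-week array nearly met. It fell by 0.97 (standard error 0.14, adjusted p = 0.0323).

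*Sh3bgr*, a gene for a small protein of the thioredoxin-like fold, stood out by its narrow spread. Its signals were 7.30, 7.43 and 7.35 in 10-week lenses, against 8.47, 8.08 and 8.16 in 8-week lenses and 8.15, 8.37 and 8.35 in 4-week lenses. It fell by 0.88 (1.84-fold, standard error 0.14, adjusted p = 0.0413 by limma), and the ranges of the 8-week and the 4-week values overlapped. *Bbip1*, a subunit gene of the BBSome, the complex that carries membrane proteins to cilia, had 5.45, 2.96 and 3.45 in 10-week lenses and 6.20, 3.86 and 4.11 in 8-week lenses. Its groups overlapped, since both arrays numbered 1 read above the others, and its fall of 0.77 (standard error 0.12, adjusted p = 0.0450) rests on the block and on 2 pairs of signals below 5. Over all genes, the 3 pairs were all lower in 874 (19.2%) and all higher in 584 (12.8%), and the groups did not overlap in 175 genes lower (3.85%) and 124 higher (2.73%) at 10 weeks. All 10 called genes were lower in the 3 pairs, and 9 of them, all but *Bbip1*, had groups that did not overlap, but their calls came from the same values.

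**Figure D2:**
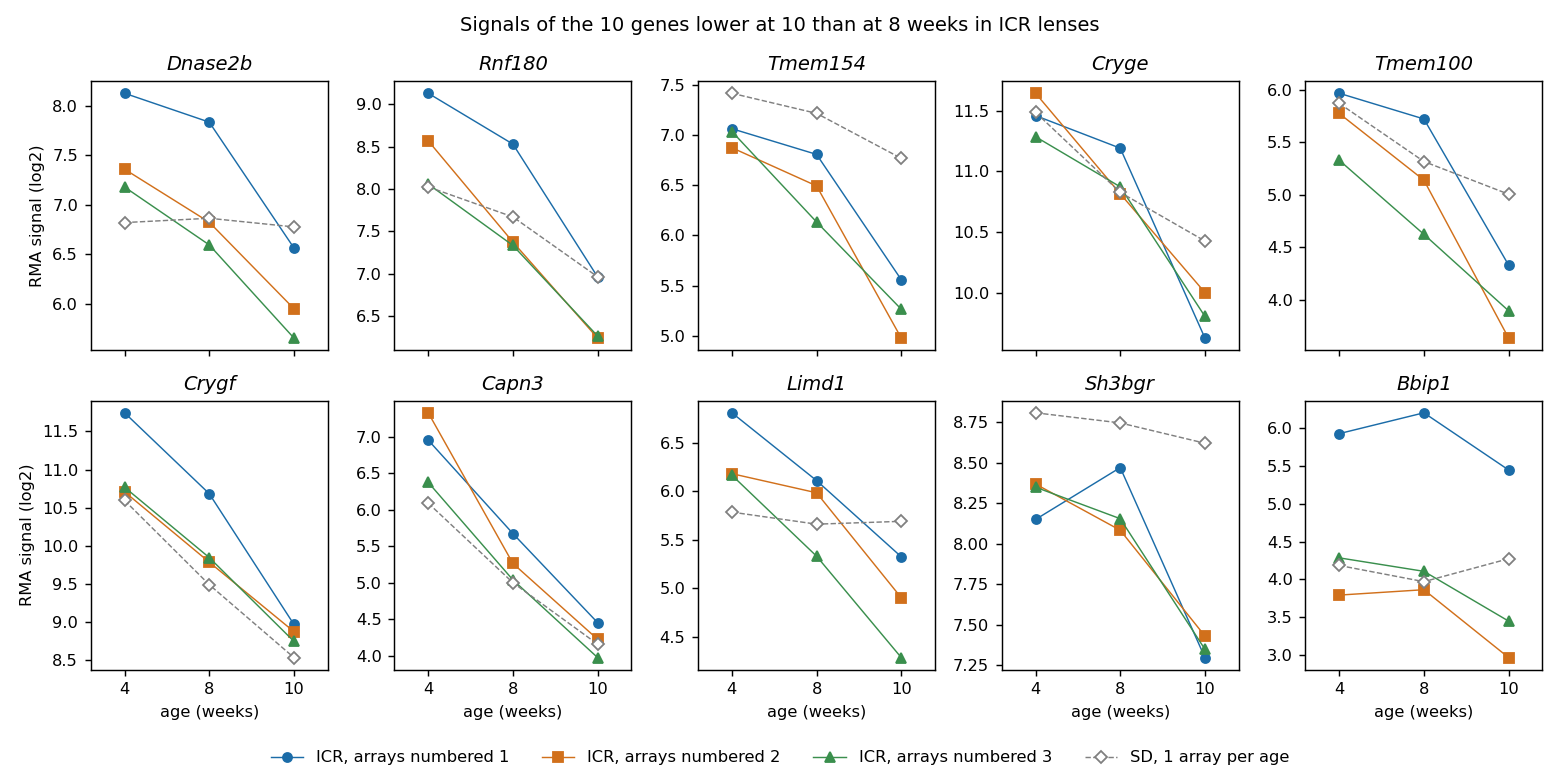
Log2 RMA signals of the 10 called genes against age, 4, 8 and 10 weeks. Filled symbols joined by lines are ICR arrays with the same number and open diamonds are the single SD arrays. For each gene the 3 ICR lines fall between 8 and 10 weeks, and *Sh3bgr* and *Bbip1* show no fall before 8 weeks on the arrays numbered 1.

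**Figure D3:**
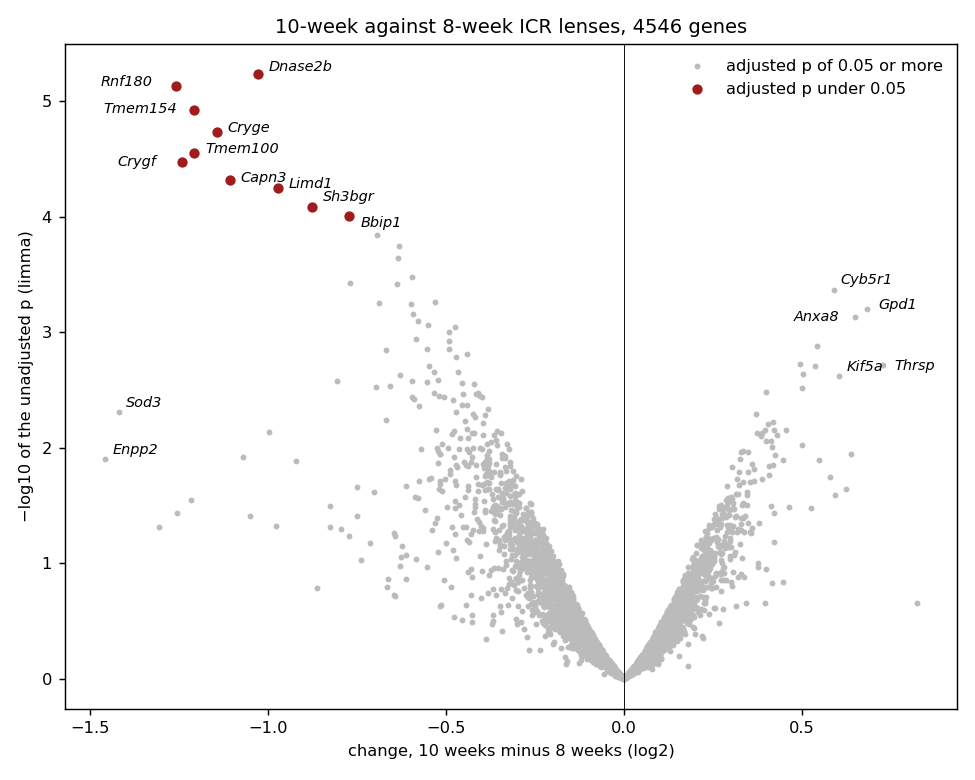
Change between 10-week and 8-week ICR lenses on the log2 scale (x axis) against the −log10 of the unadjusted p from limma (y axis) for 4546 genes. The 10 called genes, in red, are all on the left, and the genes with larger falls such as *Enpp2* and *Sod3* have larger p.

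No gene was called higher in 10-week lenses. The largest positive changes among genes higher in all 3 pairs were those of *Thrsp*, *Gpd1*, *Anxa8*, *Mir207*, *Cyp2u1*, *Kif5a*, *Cyp26a1*, *Cyb5r1*, *Chac1* and *Rcan2*, from 0.73 down to 0.55. *Kif5a*, *Cyp26a1*, *Chac1* and *Mir207* reached a signal of 5 only on 10-week arrays, with highest signals of 5.01, 5.29, 5.14 and 5.10. They were thus tested only because of the age at which they were higher, so their direction is no independent evidence. *Gpd1*, the cytosolic glycerol-3-phosphate dehydrogenase that links glycolysis to lipid synthesis, had 6.91, 7.10 and 7.52 in 10-week lenses and 6.34, 6.37 and 6.76 in 8-week lenses. Its groups did not overlap, and its change was 0.68 (standard error 0.14, adjusted p = 0.136 by limma). *Cyb5r1*, a cytochrome b5 reductase gene, had 7.51, 7.17 and 7.35 in 10-week lenses and 6.89, 6.56 and 6.81 in 8-week lenses, a change of 0.59 (adjusted p = 0.114). *Anxa8*, a gene for a calcium-dependent membrane-binding annexin, had 7.86, 7.18 and 7.36 in 10-week lenses and 7.24, 6.48 and 6.73 in 8-week lenses, a change of 0.65 (adjusted p = 0.146). With a variance trend and robust estimation in limma, *Anxa8*, *Cyb5r1*, *Gpd1* and *Thrsp* passed the threshold, among 30 genes that did.

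*Thrsp*, a regulator of fatty acid synthesis, had 7.85, 5.60 and 6.0 in 10-week lenses and 7.08, 4.98 and 5.20 in 8-week lenses, a change of 0.73 (standard error 0.17, adjusted p = 0.229 by limma), and the groups overlapped. The kinesin motor gene *Kif5a* had 4.92, 4.77 and 5.01 in 10-week lenses and 4.00, 4.38 and 4.50 in 8-week lenses, a change of 0.61 (adjusted p = 0.250). Its relatives *Kif5b* and *Kif5c* changed by −0.06 and 0.03. *Chac1*, which degrades glutathione under stress signalling, changed by 0.58 (adjusted p = 0.441). *Rcan2*, a calcineurin inhibitor gene, changed by 0.55 (adjusted p = 0.406) and the retinoic acid hydroxylase gene *Cyp26a1* by 0.59 (adjusted p = 0.478).

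Genes that the study discusses for lipid metabolism, water balance and mesenchymal change did not pass the test. *Srebf1*, the master regulator gene of lipid synthesis, had 7.91, 7.85 and 7.61 in 10-week lenses and 7.09, 7.49 and 7.38 in 8-week lenses, a change of 0.47 (adjusted p = 0.494 by limma). The lipase gene *Pnpla3* changed by 0.35 (adjusted p = 0.478), the desaturase gene *Scd* by 0.12 (adjusted p = 0.817) and the water channel gene *Aqp5* by 0.53 (adjusted p = 0.494). *Aqp5* had 6.40, 5.16 and 4.78 in 10-week lenses and 5.42, 4.63 and 4.71 in 8-week lenses, so that most of its change came from the pair numbered 1. *Pik3r1* changed by 0.33, *Cpm* by 0.32, *Col1a2* by 0.31 and *Aqp1* by −0.04. Of the 20 genes of fatty acid synthesis, 0 were called by limma, with 3 higher and 1 lower at an unadjusted p under 0.05, and the median was 0.08. The lower one was the phosphatidate phosphatase gene *Lpin1* at −0.38. Of the 11 cholesterol synthesis genes, 10 had a negative change, against 56.9% of all genes, with a median of −0.13. Of these 11, 0 were called and 1 was lower at an unadjusted p under 0.05. Between 4 and 10 weeks in the same fit, *Srebf1* rose by 1.26 (adjusted p = 0.00492 by limma) and *Scd* by 0.77 (adjusted p = 0.00616). *Pnpla3*, *Aqp5*, *Pik3r1*, *Cpm* and *Col1a2* also rose past the threshold, and *Aqp1* did not (0.30, adjusted p = 0.329). The genes that rose there had been picked by the study on these same arrays.

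The lists that the study chose by RT-qPCR were drawn from genes it had picked by fold change between ages on these same arrays. RT-qPCR at the same ages then kept those with a significant change. The lists thus come from the array values tested here, so their direction is not independent evidence. All 32 tested genes listed as decreased had a negative change, against 56.9% of all genes, with a median of −0.54. At an unadjusted p under 0.05, 24 were lower, against 6.82% of all genes. Of the 32, 5 were called (*Rnf180*, *Tmem154*, *Tmem100*, *Dnase2b* and *Limd1*), against 0.22% of all genes. Of the 45 listed as increased, 43 had a positive change, against 1958 of all 4546 genes, with a median of 0.19. At an unadjusted p under 0.05, 14 were higher, against 2.44% of all genes, and 0 were called by limma.

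**Figure D4:**
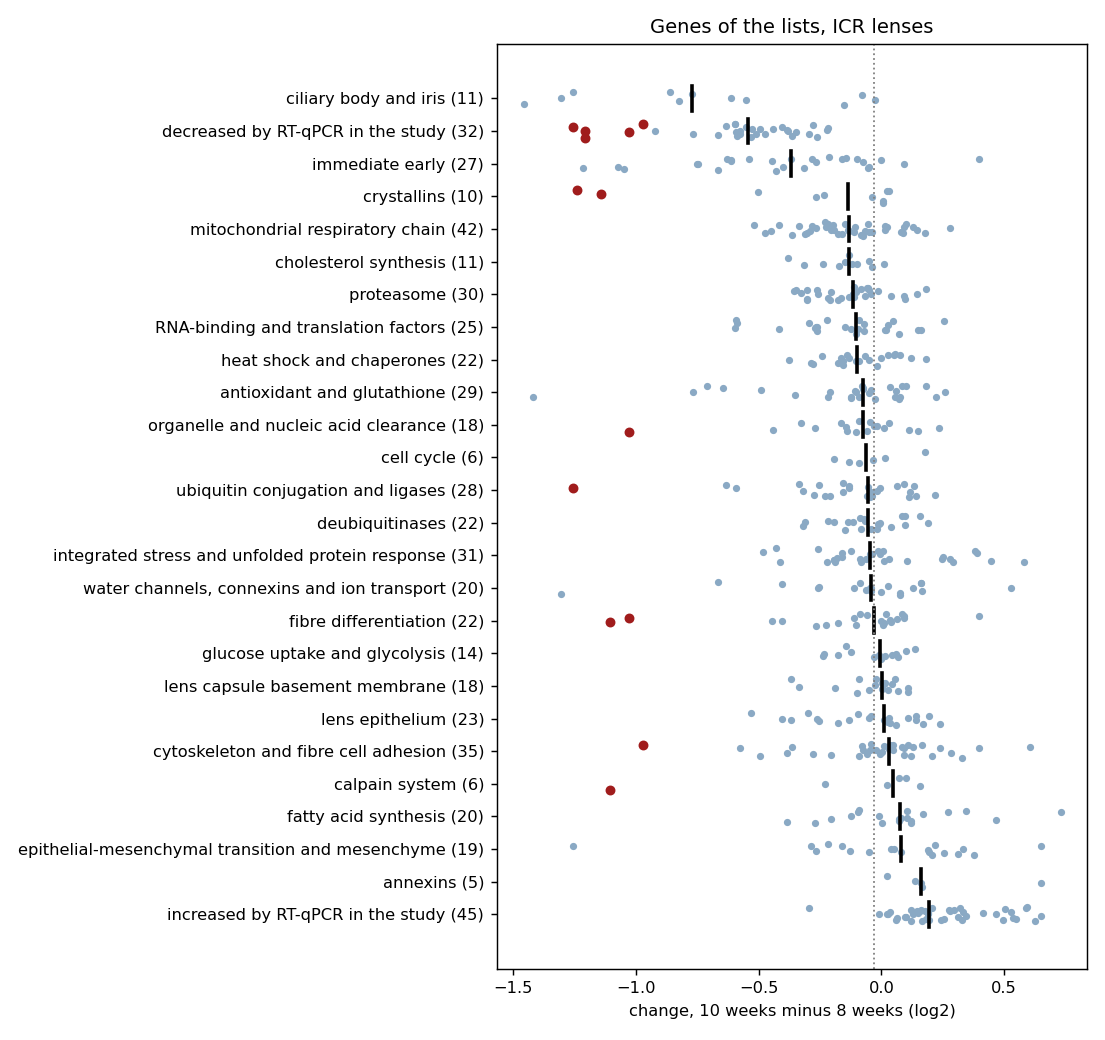
Change between 10-week and 8-week ICR lenses on the log2 scale for the genes of each list with 5 or more tested members (number in brackets). Each point is a gene, red where called, black bars are list medians and the dotted line is the median of all genes, −0.03. The ciliary body and iris list lies farthest to the left, at −0.77, with no red point.

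Genes of energy metabolism and stress gave no call by limma. Of 42 genes of the mitochondrial respiratory chain 31 had a negative change, against 56.9% of all genes, and the median was −0.13. The medians of the pairs numbered 1, 2 and 3 were −0.27, −0.12 and −0.04. At an unadjusted p under 0.05, 8 were lower, against 6.82% of all genes, and 0 higher. Among the 8 were the complex I gene *Ndufv2* (−0.45) and the complex III gene *Uqcrfs1* (−0.52). The 29 antioxidant genes had a median of −0.08 and 4 lower at an unadjusted p under 0.05. *Hmox1*, the inducible haem oxygenase gene, had 6.30, 5.81 and 5.46 in 10-week lenses and 7.23, 6.60 and 6.06 in 8-week lenses, a change of −0.77 (adjusted p = 0.109 by limma). Its 4-week values were 8.24, 8.05 and 6.99. The 31 genes of the integrated stress and unfolded protein responses had a median of −0.05, with 4 higher and 3 lower at an unadjusted p under 0.05, and the 22 heat shock and chaperone genes had −0.10. Among 25 genes of RNA binding and translation, *Igf2bp2* came nearest to the threshold at −0.59 (adjusted p = 0.107), with 6.62, 6.57 and 6.37 in 10-week lenses and 7.12, 7.08 and 7.14 in 8-week lenses.

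The cytoskeleton and cell adhesion list moved both ways. Of 35 genes tested, *Limd1* was called lower, and 4 genes were higher and 5 lower at an unadjusted p under 0.05, with a median of 0.03. *Kif5a*, *Tmod1*, the focal adhesion gene *Lims1* (0.33) and the plakoglobin gene *Jup* (0.28) were the 4 higher genes. Of 23 lens epithelium genes 0 were called by limma and 4 were lower at an unadjusted p under 0.05. They were *Ptn* (−0.53), *Hes1* (−0.41), *Pax6* (−0.30) and *Sox2* (−0.26), while *Foxe3* had 0.06 and *Cdh1* 0.20. The median of that list was 0.01. Of 19 genes of mesenchymal transition 0 were called, with 2 higher and 1 lower at an unadjusted p under 0.05 and a median of 0.08. Of 10 annexin genes measured, 5 reached a signal of 5, and all 5 had a positive change, against 1958 of all 4546 genes. Their median was 0.16, and *Anxa8* was the 1 at an unadjusted p under 0.05. Between the single SD arrays of 10 and 8 weeks their median difference was −0.59. The 18 genes of the lens capsule basement membrane, the 14 of glucose uptake and glycolysis and the 6 of the cell cycle had medians of 0.00, −0.01 and −0.06 and no call by limma, with 1 gene among them, a lower one of the capsule, at an unadjusted p under 0.05.

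Genes of the ciliary body and iris, tissues that touch the lens at its equator, were lower at 10 weeks without passing the test. Of 31 measured, 11 reached a signal of 5, and all 11 had a negative change, against 56.9% of all genes. Their median was −0.77, with 4 at an unadjusted p under 0.05. Some of the 11 reached 5 only before 10 weeks, such as *Enpp2* (at most 4.52 at 10 weeks) and *Slc13a3* (at most 4.02). The filter may thus have had a part in the shared direction, which is no independent evidence. Between the single SD arrays of 10 and 8 weeks the median difference of the 11 genes was −0.99. *Enpp2*, which makes lysophosphatidic acid, had 3.86, 4.24 and 4.52 in 10-week lenses and 6.29, 4.73 and 5.97 in 8-week lenses, a change of −1.46 (standard error 0.48, adjusted p = 0.405 by limma). The fibrillin gene *Fbn1*, a component of the fibres that hold the lens, changed by −1.26, and the anion transporter gene *Slc26a4* by −1.31, and their SD differences were −1.90 and −1.71. The mean of the 11 genes was 4.72, 4.61 and 5.09 on the 10-week arrays numbered 1, 2 and 3, and 5.92, 4.94 and 5.70 on the 8-week arrays. Over all 31 genes the mean signal was 3.36 to 3.58 at 10 weeks and 3.52 to 3.88 at 8 weeks, and the pigment genes *Tyr*, *Pmel*, *Mlana*, *Tyrp1* and *Dct* were at 3.38 or less on all of these arrays. *Tyrp1* lay between 1.82 and 2.05 at 10 weeks and between 2.57 and 3.25 at 8 weeks, and *Dct* between 2.49 and 2.69 at 10 weeks and between 2.77 and 3.16 at 8 weeks, without overlap. *Tyr*, *Pmel* and *Mlana* overlapped between the ages. These pigment genes lay below the limit of 5 and were not tested, and among the genes tested 3.85% were lower without overlap. With the mean of the 11 genes as a covariate, an alternative chosen after seeing the data, *Limd1* was the 1 gene called, at −1.21. The changes of the other 9 called genes were then −1.29 (*Tmem154*) to −0.82 (*Sh3bgr*), with adjusted p of 0.0528 to 0.193 by limma. Those of *Dnase2b* and *Crygf* were −1.01 and −1.17, against −1.03 and −1.24 without the covariate, and *Capn3* had −0.86 against −1.11.

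Immediate early genes, a class induced quickly by handling and injury, also differed between arrays. Of 27 tested, 25 had a negative change, against 56.9% of all genes, with a median of −0.37. At an unadjusted p under 0.05, 6 were lower, against 6.82% of all genes, and 0 higher, and limma called 0. Between the single SD arrays of 10 and 8 weeks the median difference of the 27 genes was 0.14. Some of the 27 may have passed the filter only through younger lenses, and the part this had in the direction was not tested. *Fos* had 5.50, 6.73 and 3.45 in 10-week lenses and 7.35, 7.06 and 4.49 in 8-week lenses, a change of −1.07 (adjusted p = 0.404) that was smaller than the spread within either age. The mean of the 27 genes was 4.97, 5.55 and 4.55 on the 10-week arrays and 5.73, 5.61 and 4.93 on the 8-week arrays. With that mean as a covariate, also chosen after seeing the data, 6 of the 10 genes remained called, namely *Capn3*, *Cryge*, *Dnase2b*, *Limd1*, *Rnf180* and *Tmem154*.

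In SD lenses, which stay clear, the same ages were measured with 1 array each. The SD array of 10 weeks was below that of 8 weeks for 8 of the 10 called genes, and above it for *Bbip1* (0.30) and *Limd1* (0.03). For *Crygf*, *Capn3* and *Rnf180* the SD differences were −0.96, −0.84 and −0.71, and for *Tmem154*, *Cryge* and *Tmem100* they were −0.45, −0.40 and −0.31. For *Sh3bgr* and *Dnase2b* they were −0.13 and −0.09. The median difference of all genes in SD was −0.12. When the change in ICR was tested against that in SD over all 12 arrays, limma called 0 genes, with 39 at an unadjusted p under 0.05 and a smallest adjusted p of 1.0. *Sh3bgr* had the smallest p of the 10 genes in that test, with the ICR change lower than the SD change by 0.75 (standard error 0.28, unadjusted p = 0.0276, adjusted p = 1.0). The median standard error of the difference between strains was 0.41. With the number as a block for the ICR arrays, limma again called 0 genes, with 227 at an unadjusted p under 0.05, a smallest adjusted p of 0.481 and a median standard error of 0.26. Of the 10 called genes 7 then had an unadjusted p under 0.05, all but *Rnf180*, *Crygf* and *Capn3*, and *Bbip1* had the smallest (ICR change lower than the SD change by 1.07, unadjusted p = 0.00143, adjusted p = 0.651). Those genes were called for a fall in ICR on the same arrays, and both fits assume that SD arrays vary as little as ICR arrays do, which 1 SD array per age cannot show.

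**Figure D5:**
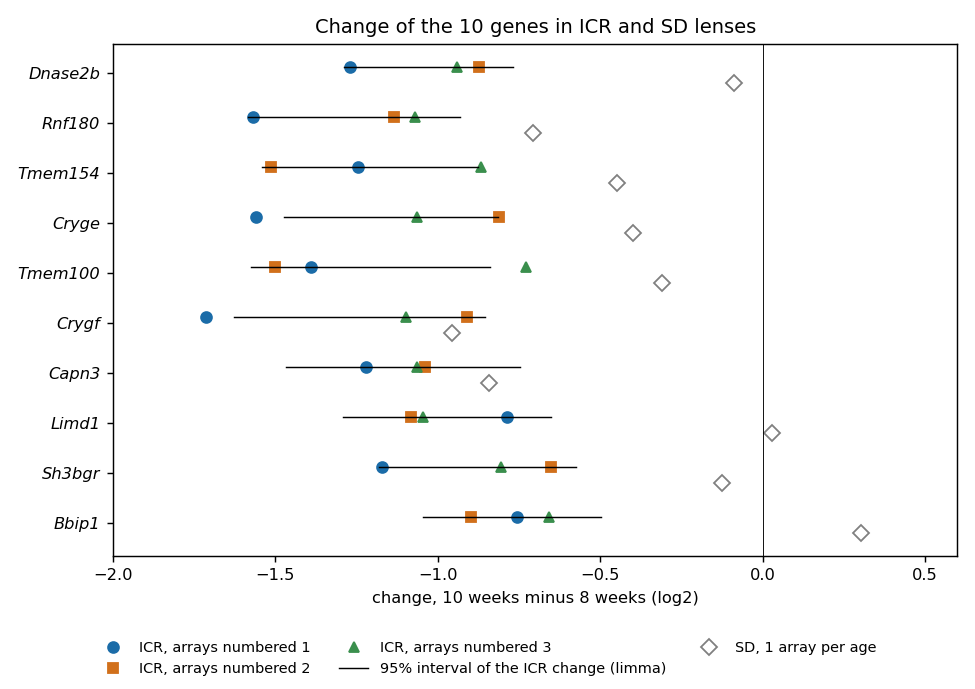
Change between 10 and 8 weeks on the log2 scale for the 10 called genes. Filled symbols are the 3 same-numbered pairs of ICR arrays, lines the 95% interval from limma and open diamonds the difference between single SD arrays. The ICR points are all below 0, while the SD points run from −0.96 for *Crygf* to 0.30 for *Bbip1*.

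By the fold limits that the study used between ages, 9 genes were increased more than 1.5-fold and 9 decreased by more than 1.17 on the log2 scale between 8 and 10 weeks. Among the genes lower in all 3 pairs, *Enpp2*, *Sod3*, *Slc26a4* and *Fbn1* had larger or equal changes to the called genes, and adjusted p of 0.405, 0.317, 0.535 and 0.509 by limma. *Sod3*, the extracellular superoxide dismutase gene, had 2.90, 3.94 and 3.71 in 10-week lenses and 5.28, 4.42 and 5.10 in 8-week lenses, a change of −1.42 with a standard error of 0.39. *Enpp2* and *Sod3* reached a signal of 5 only before 10 weeks, so their direction is no independent evidence. The 8-week array numbered 1 weighed on these counts, since without it 182 genes passed the limit of increase and 1 that of decrease.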

How the data were processed

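Lens RNA of male ICR and SD rats was measured on GeneChip Rat Gene 2.0 ST arrays. The authors deposited log2 signals of 36685 probe sets, which they had normalized in R by Robust Multi-array Average (RMA), and these were used unaltered. For the RMA package, its version and whether it ran on all 12 arrays at once, the entry is: not given in the sources used here. The precision is limited by how many arrays there are. The platform annotation gives 1 symbol for 18511 probe sets, several for 575 and no entry for 17599. Where a gene had several probe sets (291 genes), that of highest mean signal was taken. Genes without a signal of 5 on any of the 9 ICR arrays were left out, as in the study.

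Ages were compared by limma 3.58.1 (R 4.3.3, functions lmFit and eBayes, 2-sided) with Benjamini-Hochberg adjustment over all 4546 genes to a threshold of 0.05. The 3 ages shared 1 fit with the number in the sample title as a block, which left 4 residual and 5.73 prior degrees of freedom. Whether the numbers pair the arrays was checked from deviations from the age means. Across genes, which are no independent replicates, arrays of the same number but different age had Pearson coefficients of 0.55 to 0.85, and those of different number −0.75 to 0.51. The negative coefficients were those of arrays numbered 1 with arrays of another number (−0.75 to −0.54). Arrays numbered 2 had 0.34 to 0.51 with those numbered 3, not far below the 0.55 to 0.69 within each of these numbers. The labels do not say what a number stands for. The change in ICR was tested against that in SD by an interaction over 12 arrays, without the block. The script was tested on simulated data.

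Named genes were those called, the 10 largest changes each way with all pairs alike, the 3 smallest p of each of 29 lists, and the genes the study names. Further list members were named to complete a group or a count of 5 or fewer. The members and lists were chosen with earlier results of these data known. Of 874 list symbols, 504 were tested. Promoter windows came from RefSeq (GRCr8), with 8 of the 10 called genes matched, and were aligned with Biopython 1.88. Plots used matplotlib 3.10.9 (Python 3.11.15). Alternatives covered the block, the arrays, the filter, the probe sets, the normalization and the variance model.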

Additional observations from a re-analysis of the deposited data

How the results depend on the processing

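The 10 called genes kept a negative change under every one of 25 alternatives, from −1.42 to −0.71, and without the 3 arrays numbered 1 from −1.19 to −0.73. Many alternatives, such as those of the block, the filter, the variance model and the 4-week arrays, leave the fitted change itself unaltered. The genes were also chosen for a fall on these arrays, so their shared sign is no independent evidence. Each stayed past the threshold in 5 to 14 of the alternatives. The count of calls by limma was 0 with no replicate block, 0 with no filter on signal (18166 genes tested, 1118 at an unadjusted p under 0.05), 0 with probe sets of no or several genes kept (565 at an unadjusted p under 0.05) and 0 without the 3 arrays numbered 1 (302). It was 5 with only the 6 arrays of 8 and 10 weeks and 30 under limma's trended prior with robust fitting. Leaving out 1 array gave 0 to 12 calls, with 0 without 4-week replicate 1, 8-week replicate 1 or 10-week replicate 1 or 2 (398, 299, 293 and 319 at an unadjusted p under 0.05), 1 without 8-week replicate 3 and 2 without 10-week replicate 3. Among alternatives chosen after seeing the data, it was 1 with the ciliary body and iris mean as a covariate, 6 with the immediate early mean and 2 (*Cryge* and *Tmem154*) with the number as a random block.

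Of the calls, 8 belonged to the gene lists. That count was 0 with no replicate block, no filter, all probe sets kept or the arrays numbered 1 left out, 5 with the 6 arrays, 18 with the variance trend, 0 to 9 with 1 array left out, 1 with the ciliary covariate and 2 with the random block. The 9 genes past the limit of increase became 102 with no filter, 5 with a signal of 5 in 3 arrays, 15 without the arrays numbered 1 and 7 to 182 with 1 array left out. The 9 past the limit of decrease became 1 without the arrays numbered 1 and 1 to 18 with 1 array left out. *Aqp1*, at −0.04, ranged from −0.19 to 0.18 with 1 array left out, and was above 0 without 8-week replicate 1 (0.02) or 10-week replicate 3 (0.18), and *Cpm* turned to −0.038 with the ciliary covariate. The cause of these changes was not tested. The test of ICR against SD called 0 genes with each of its 4 alternatives, with 25 to 481 at an unadjusted p under 0.05. Signals below 5, as those of *Capn3* and *Tmem100* at 10 weeks, lie under the limit used for the filter, and how well the arrays resolve differences there was not tested.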

Other observations

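A total of 17 probe sets without a single symbol in the platform annotation could be named because their 9 ICR signals match a line of the study's supplementary tables, and adding them was chosen after seeing the data. Those tables list genes picked by the study on these samples, so the direction of the genes is not independent evidence. Among them *Stambpl1*, a gene for a deubiquitinase that cuts K63-linked chains, had signals of 5.42, 4.41 and 4.65 in 10-week lenses, against 6.98, 5.73 and 5.76 in 8-week lenses and 7.43, 6.18 and 6.36 in 4-week lenses. It fell by 1.33 on the log2 scale (standard error 0.12, adjusted p = 0.00325 by limma with the block, and 1.0 without it), which made it the 11th gene called, with a smaller p than any of the 10 others. Its SD arrays of 4, 8 and 10 weeks read 6.77, 6.46 and 5.42.

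None of the other 16 passed the test. *H19*, an imprinted noncoding RNA, had 5.08, 5.25 and 5.31 in 10-week lenses and 6.35, 6.10 and 5.92 in 8-week lenses, a change of −0.91 (adjusted p = 0.308 by limma). The desmoplakin gene *Dsp* changed by −0.84 (adjusted p = 0.353), the phosphate transporter gene *Slc20a2* by −0.53 (adjusted p = 0.284) and *Caprin2*, an RNA-binding protein gene of lens fibres, by −0.33 (adjusted p = 0.473). On the positive side, the steroid reductase gene *Srd5a2* had 9.10, 9.20 and 9.37 in 10-week lenses and 8.38, 8.97 and 9.08 in 8-week lenses, a change of 0.42 (adjusted p = 0.391).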
